A study of Mus musculus with 15 samples.

Results

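Gas1 and 9 core genes of the hedgehog pathway were examined in liver RNA of mice that carried the Gas1 plasmid or the empty plasmid. The members were chosen by gene name on the array: Ihh as ligand, Gas1 and Cdon as co-receptors, Ptch1 and Hhip as receptor and ligand sink, Smo as transducer, Sufu as restraint of the GLI factors, and Gli1, Gli2 and Gli3 as GLI factors. The array design named all 10 genes, with 17 probes, of 22032 gene symbols and 55681 probes in all. Ihh, Gli1, Gli2 and Gli3 had 1 probe each and Gas1 had 3, and the other 5 genes had a pair each.

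Expression was measured on single-colour microarrays in the livers of male CD1 mice, an outbred strain. All mice received 50 µg of plasmid DNA at each weekly hydrodynamic gene delivery (HGD), a fast tail vein injection that carries DNA into the liver, from week 28 to week 34. Livers were taken at week 35, whereas the sample labels give an age of 10 weeks. The control mice of group C were injected with saline in place of the carcinogen and later with the empty plasmid. In group T, diethylnitrosamine (DEN), a liver carcinogen, was injected at 25 µg per g of body weight on day 15, and the later plasmid was the empty one. Group G received the same DEN dose and pcDNA3/CAG-HAGas1, in which the broadly active CAG promoter drives an HA-tagged Gas1. HGD reaches mainly cells near blood vessels, and whole liver RNA also holds the RNA of cells without plasmid. The arrays numbered 4 for C, 5 for T and 6 for G. Arrays 3 and 4 of group C carried 1 RNA code and so did arrays 4 and 5 of group T, and each such pair was averaged, which left 3, 4 and 6 mice.

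In hedgehog signalling, a secreted ligand binds Ptch1 and ends its hold on Smo, which then frees the GLI transcription factors from Sufu. Gas1, a growth arrest protein anchored to the cell surface, and Cdon help to present the ligand to Ptch1. Gli1, Ptch1 and Hhip are at the same time transcriptional targets of the pathway. In adult liver the pathway is known to be quiet in hepatocytes and to respond to injury, with stellate cells and bile duct cells among the responding types.

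The brightest Gas1 probe, at base 1569 in the coding region, gave overlapping signals in the livers of groups G and T. A weak probe at base 594, not placed here in the coding or the untranslated part, was higher in most mice of G than in all mice of T without passing the test. Of the 10 genes, 0 passed the limma test in any comparison, beside 2.37% of all genes in T against C, 0.132% in G against T and 0.427% in G against C. The probes are shown first because detection and probe position decide what can be read from these arrays. The 3 Gas1 probes have the sequence of different stretches of the Gas1 transcript, which the array design places on chromosome 13 of mm9, minus strand. The probe at base 1569 of the transcript (chr13:60277268-60277327) lies in the protein-coding part, without a stop codon in any reading frame, and has a GC content of 85%. It is printed whole because the HAGas1 plasmid codes for the protein. The probe at base 594 (chr13:60278243-60278302) has a GC content of 60%, and whether it lies in the coding or the untranslated part was not settled, since no coding annotation was used here. The probe at base 2438 (chr13:60276399-60276458) lies in the 3′ untranslated region and has a GC content of 38.3%. Of these last probes the first 30 of 60 bases are given.
Gas1 at base 1569: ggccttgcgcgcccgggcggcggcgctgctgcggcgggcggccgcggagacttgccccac
Gas1 at base 594, first bases: atggatgaggacgcccatgccagaagtgcg
Gas1 at base 2438, first bases: aaagttaccatggtgttgaacaatgcatgt

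Detection set the first limit. A spot was called detected where the scanner software marked it as well above background. Of the 17 probes, Ihh, Gas1 at base 1569, Ptch1 at base 4207 and Smo at base 3835 were detected on all 15 arrays. Smo at base 3529 was detected on 14 arrays. Hhip at base 4488 was detected on 2 of 4 C arrays, 2 of 5 T arrays and all 6 G arrays. Gas1 at base 2438 was detected on 2, 3 and 6 arrays, and Gas1 at base 594 on 1, 0 and 4 arrays, in the same order. Both Sufu probes, Gli2, Gli3, Ptch1 at base 6788 and Hhip at base 8039 were detected on no array. Gli1 was detected on 1 array of each group. Cdon at base 3838 was detected on 1, 0 and 2 arrays, and Cdon at base 7117 on 1 array of group G only. The arrays differed in this measure over all spots as well, with 15707 to 27681 spots well above background on the C arrays (median 19820.5), 19970 to 22638 on the T arrays (median 20991) and 18041 to 29765 on the G arrays (median 25491). The part of this general difference in the higher detection of the weak hedgehog probes in group G was not tested.

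**Figure D1:**
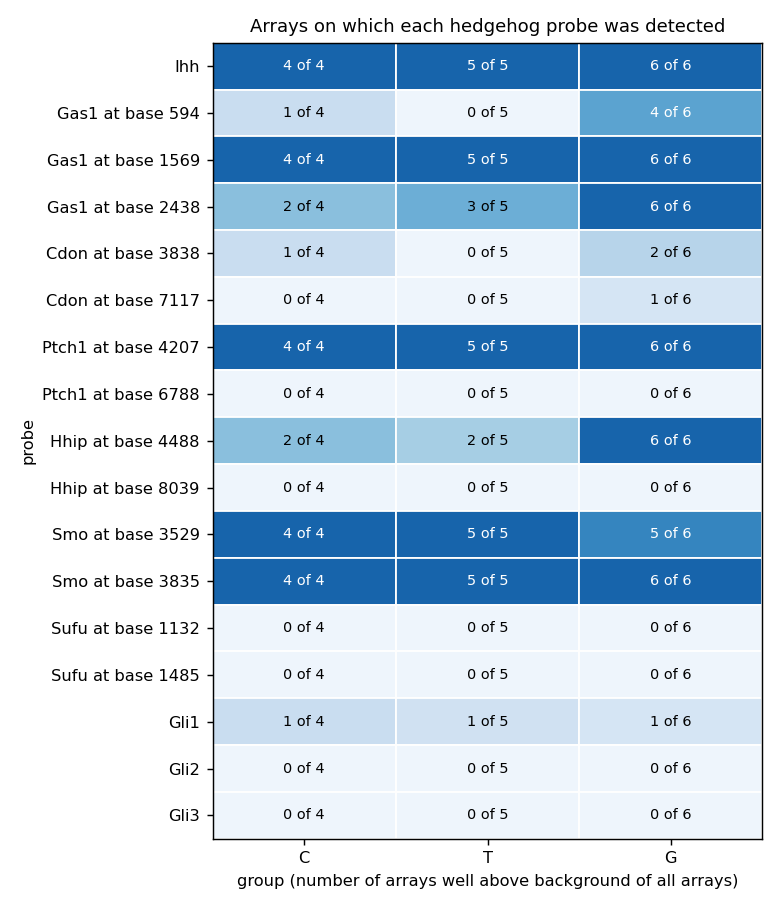
Number of arrays on which each of the 17 probes (rows) was well above background in groups C (4 arrays), T (5) and G (6), with darker fields for a larger share of the arrays. Ihh, Gas1 at base 1569, Ptch1 at base 4207 and Smo at base 3835 were detected on all 15 arrays, and 6 probes on none.

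Gas1 was read in each sample first, since the plasmid codes for it. All values below are normalized log2 intensities, and differences are on the log2 scale after an offset of 50 was added to the intensity, which understates the change of weak probes. At base 1569, the coding probe, the values were 6.80, 7.35 and 6.80 in the mice of group C. They were 6.93, 7.18, 7.29 and 7.39 in group T. In group G the lowest value was 6.83, the median 7.01 and the highest 7.37. The groups overlapped throughout, and the highest mouse of all belonged to group T. The spot on array 4 of group C was an outlier and was left out, so that this mouse rests on 1 array. Before normalization, the signal of this spot was between 61.6 and 108 on the C arrays, 106 and 209 on the T arrays and 97.4 and 154 on the G arrays, over a background of 25 to 29.

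For this coding probe the difference G against T was -0.13 (SE 0.13, limma adjusted p = 0.817), with a 95% confidence interval of -0.42 to 0.15. On the same scale this is a ratio of 0.911, with limits of 0.747 and 1.11. The offset draws this ratio and its limits toward 1, so they are no bound on the ratio of the signals. Against group C the difference was 0.08 (SE 0.14, adjusted p = 0.874) for group G and 0.22 (SE 0.16, adjusted p = 0.513) for group T. Within the slides, which each held arrays of all 3 groups, G against T was -0.32 on slide 1 and -0.07 on slide 2. With an offset of 16 in place of 50 the G against T difference of this probe was -0.18, and with the processed signal of the scanner software it was -0.35 (adjusted p = 0.852). With median scaling, T against C for this probe was 0.64 and passed the test (adjusted p = 0.0356), the only setting of 26 to call it. This probe alone did not separate group G from group T, and whether the plasmid carries the sequence of the probe at base 594 is not known here. The paper reports HA-tagged Gas1 RNA by RT-PCR and protein by western blot in liver after HGD, with the RNA falling over time.

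The other Gas1 probes gave a different picture. At base 594, group C had 6.17, 6.02 and 6.50. Group T had 6.04, 6.09, 6.12 and 6.05. In group G, 5 mice had a usable spot, with 6.10 as the lowest, 6.39 as the median and 6.52 as the highest. Of these 5, 4 lay above all mice of group T and 1 lay within their range. The spot of the second G mouse was an outlier and was left out. Its signal of 44.3 over a background of 32 was not well above background. It lay among the signals of the T arrays, 40 to 49.6. G against T was 0.29 (SE 0.10, 95% interval 0.06 to 0.51, unadjusted p = 0.0165 and adjusted p = 0.45 by limma), and it was 0.22 on slide 1 and 0.39 on slide 2. With outlier spots kept it was 0.21. Against group C the difference was 0.13 for group G (SE 0.11, limma adjusted p = 0.717), with -0.11 on slide 1 and 0.26 on slide 2. For group T it was -0.16 (SE 0.12, limma adjusted p = 0.529). As no array of group T was well above background, the ratio of G to T has only a lower limit. By this limit the mean of the 5 G mice was at least 1.07-fold higher on these arrays, with 4 of 6 G arrays above background. The limit sets the mean of group G against the mean over the T arrays of each array's lowest detected signal, or of the probe's own signal where that was higher. Like the lower limits given below, it compares means and takes no account of the spread between mice. With the processed signal the G against T difference was 2.14 (adjusted p = 0.256), a value set against signals at the background.

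At base 2438, in the 3′ untranslated region, group C had 5.95, 6.64 and 6.38. Group T had 6.27, 6.45, 6.22 and 6.38, and group G ranged from 6.15 over a median of 6.40 to 6.70. The groups overlapped fully and G against T was 0.07 (SE 0.13, adjusted p = 0.922). Over the mice, the 594 and 1569 probes had a Pearson r of -0.39 and the 594 and 2438 probes one of -0.31 (n = 12 each), while the 1569 and 2438 probes had one of 0.40 (n = 13). These are descriptions over mice that share the arrays and their normalization. The probes of Gas1 thus did not move together from mouse to mouse.

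With the 3 probes averaged, the Gas1 gene value was 6.31, 6.67 and 6.61 in group C. In group T it was 6.41, 6.57, 6.54 and 6.61. It ranged from 6.49 over a median of 6.59 to 6.79 in group G. The order of the means was G, then C and T at 6.53 each, and no neighbours in this order differed beyond their spread (G against T 0.08, SE 0.08, adjusted p = 0.765). With the brightest probe of each gene in place of the average, G against T was -0.13.

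**Figure D2:**
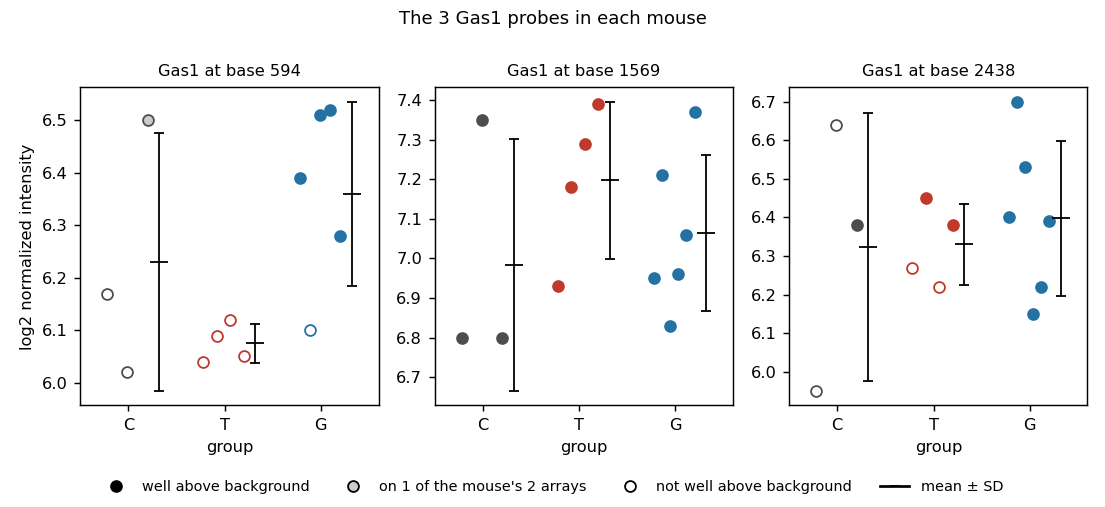
Normalized log2 intensity of the 3 Gas1 probes (vertical axes, each with its own range) in the mice of groups C, T and G, with the mean ± SD to the right of each group. Filled points were well above background, grey points on 1 of the 2 arrays of a mouse, and open points were not. At base 1569 the groups overlap, with 6.80 to 7.35 in C, 6.93 to 7.39 in T and 6.83 to 7.37 in G, and at base 594 no mouse of group T was above background.

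By a rule on Pearson's r over the 13 mice, the genes whose values were most like the Gas1 gene value were Paip1 (r = 0.85), which takes part in translation, Pcyt1a (0.83), an enzyme of phosphatidylcholine synthesis, Flywch2 (0.79), Mecr (0.77), an enzyme of mitochondrial fatty acid synthesis, and Pdpr (0.76), a regulator of pyruvate dehydrogenase phosphatase. They are the highest of 7930 genes detected on all arrays. With the coding Gas1 probe alone their r was between 0.43 and 0.71.

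Ihh, the only ligand among the members, was 7.72, 7.05 and 7.76 in group C. The mice of group T had 7.39, 7.30, 7.80 and 7.65. In group G it ranged from 7.53 over a median of 7.78 to 8.16. The highest mice belonged to group G, but the groups overlapped. Ihh was 0.30 higher in G than in T (SE 0.16, 95% interval -0.04 to 0.63, adjusted p = 0.523) and 0.32 higher in G than in C (SE 0.17, adjusted p = 0.453), and neither difference passed the test. The G against T difference was 0.45 on slide 1 and 0.30 on slide 2. T against C was 0.02 (SE 0.18, adjusted p = 0.965). The spot of Ihh on array 4 of group T was an outlier and was left out.

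Cdon, the other co-receptor, lay near the background, and its gene value was between 5.94 and 6.19 over all mice. G against T was 0.10 (SE 0.05, adjusted p = 0.53). With the processed signal the difference was 1.06 (adjusted p = 0.212), and T against C was -1.30 (adjusted p = 0.056). As no array of group T detected either Cdon probe, the weak side of these differences is a signal at the background.

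Ptch1 was measured above background by its coding probe, at base 4207 of the transcript (chr13:63612879-63612938, mm9, minus strand), which is shown as the detected probe of the receptor.
Ptch1 at base 4207: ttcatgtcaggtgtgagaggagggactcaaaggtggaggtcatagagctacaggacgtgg

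Its values were 7.56, 6.83 and 7.28 in the C mice. They were 6.90, 7.19, 6.99 and 7.05 in the T mice, and they ranged from 6.90 over a median of 7.13 to 7.45 in the 5 mice of group G with a usable spot. The lowest and the highest mouse of all belonged to group C. T against C was -0.19 (SE 0.16, adjusted p = 0.58) and G against T was 0.14 (SE 0.14, 95% interval -0.16 to 0.44, adjusted p = 0.818). Without the second mouse of group C, T against C was -0.39 and still did not pass the test (adjusted p = 0.189). For Hhip at base 4488, a probe in the 3′ untranslated region, group C had 6.10, 6.20 and 6.54 and group T had 6.56, 6.34, 6.49 and 6.26. Group G ranged from 6.22 over a median of 6.36 to 6.75. Its groups overlapped, with G against C at 0.16 (SE 0.13, adjusted p = 0.685) and G against T at 0.03 (SE 0.12, adjusted p = 0.969).

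**Figure D3:**
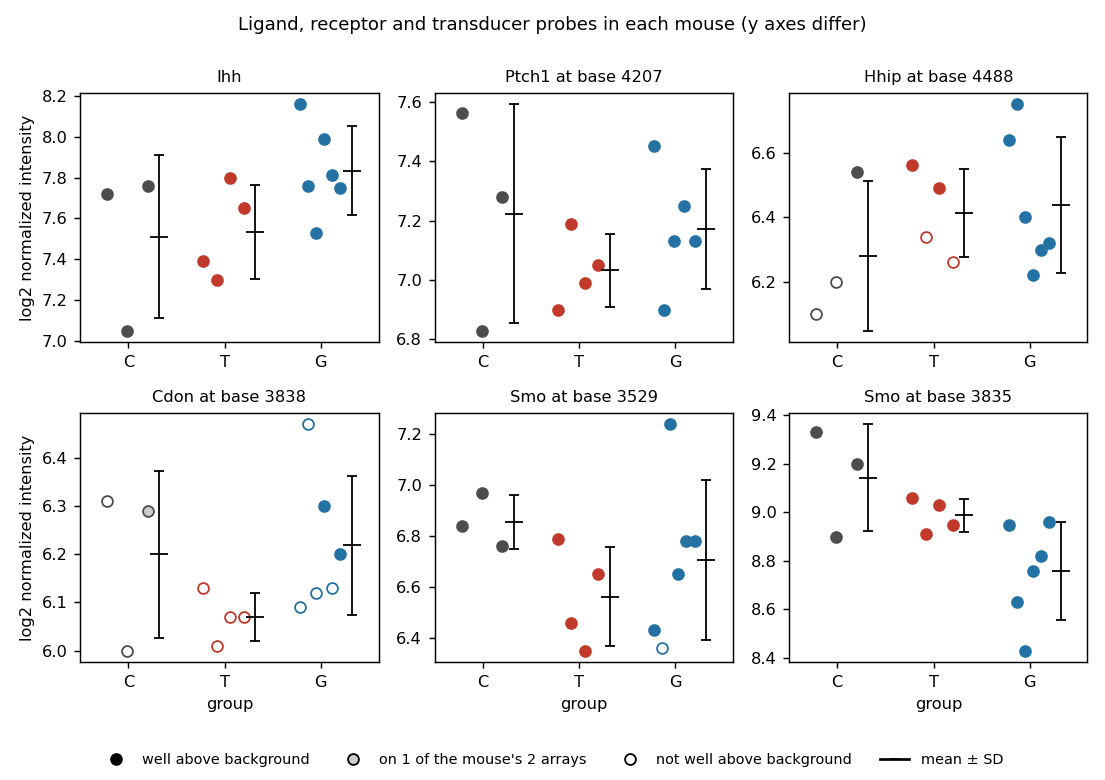
Normalized log2 intensity (vertical axes, each with its own range) of 6 probes of Ihh, Ptch1, Hhip, Cdon and Smo in the mice of groups C, T and G, with the mean ± SD to the right. Filled points were well above background, grey points on 1 of the 2 arrays of a mouse, and open points were not. The Ihh mice reach 8.16 in group G against 7.76 in C and 7.80 in T, and for Smo at base 3835 the lowest mice, down to 8.43, belong to group G.

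Smo, which carries the signal across the membrane, was the member with the smallest unadjusted p in T against C and in G against C. Its gene value was 8.09, 7.93 and 7.98 in the C mice. It was 7.92, 7.69, 7.69 and 7.80 in the T mice. In group G it ranged from 7.50 over a median of 7.75 to 7.87. All mice of group C lay above all mice of T and of G, though the lowest mouse of C, at 7.93, and the highest of T, at 7.92, nearly touched. T against C was -0.23 (SE 0.09, 95% interval -0.42 to -0.04, unadjusted p = 0.0239, adjusted p = 0.177, limma). G against C was -0.27 (SE 0.08, interval -0.44 to -0.09, unadjusted p = 0.00626, adjusted p = 0.18, limma). Neither passed the test over all genes. Both comparisons share the mice of group C. G against T was -0.04 (SE 0.07, adjusted p = 0.892).

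The direction of the Smo values was the same on each slide, with T against C at -0.21 and -0.24 and G against C at -0.14 and -0.39. It depended on the scaling: with median scaling, which also moved the median of all genes to 0.12 in T against C, the Smo values were 0.36 and 0.29, so they turned sign relative to quantile normalization, also beside that shift. With cyclic loess they were -0.21 and -0.20. The Smo probes differed from each other. At base 3835, G against C was -0.39 (SE 0.12, adjusted p = 0.225) and T against C was -0.16 (SE 0.13, adjusted p = 0.56). At base 3529 these were -0.15 (SE 0.16, adjusted p = 0.774) and -0.29 (SE 0.17, adjusted p = 0.412), and at both probes some mice of the groups overlapped. The third G mouse was the highest of group G at base 3529 (7.24) and the lowest at base 3835 (8.43). Much of the probe at base 3529 is a repeat of the bases ca, and whether it binds other transcripts was not tested. The Smo gene value averages both probes.

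Some markers of stellate cells, which are known to express hedgehog receptors, also differed between groups T and C. Ecm1 and Ngfr, 2 of 14 markers of stellate cells and fibroblasts, fell in T against C, Ecm1 by 0.86 (SE 0.19, adjusted p = 0.04) and Ngfr by 0.69 (SE 0.16, adjusted p = 0.0447), and their direction was the same on each slide. These 2 of 14 stand beside 1.2% of all genes called lower. Of the 14 markers 3 were above 0 in T against C, with Acta2, a marker of activated stellate cells, at 0.41 (SE 0.36, adjusted p = 0.579). In G against T and in G against C, 0 of the 14 passed by limma, beside 0.132% and 0.427% of all genes. At an unadjusted p of 0.05 limma gave 3 and 2 of the 14, beside 10.8% and 13.3% of all genes. Without a mouse of group C neither call was kept (adjusted p 0.0665 to 0.117). Both were also lost without the second T mouse, the third or that of arrays 4 and 5 (adjusted p 0.0712 to 0.11). With cyclic loess neither was called (adjusted p = 0.0625 for Ecm1 and 0.139 for Ngfr). With median scaling neither was called (-0.04 for Ecm1 and -0.11 for Ngfr). The mean log2 level of the 14 markers was 7.49 to 7.74 in C, 7.22 to 7.51 in T and 7.18 to 7.87 in G. All 14 were detected on at least some arrays, 9 of them on all. Fewer cells of a type and less RNA per cell cannot be told apart in whole liver RNA, and the part of these markers in the Smo values was not tested. Markers of other cell types differed in T against C as well. Emr1, 1 of 6 markers of Kupffer cells, the macrophages of the liver, rose (0.31, SE 0.06, adjusted p = 0.0267), with 0.26 on each slide, but not under cyclic loess (0.21, adjusted p = 0.0905). This 1 of 6 stands beside 1.18% of all genes called higher. The 8 hepatocyte markers were detected on all arrays, with a mean level of 13.81 to 14.11 over all mice. In T against C, limma called 1 of the 8 lower in T, beside 1.2% of all genes. This was Ttr (adjusted p = 0.00425), at 16.59 to 17.03 in C and 15.60 to 16.06 in T. Its adjusted p was the smallest of the cell type markers in T against C. Before adjustment, limma gave 5 of the 8 at a p of 0.05, beside 20.2% of all genes, and 5 of 8 were above 0.

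Sufu, which holds GLI factors in the cytoplasm, and the GLI factors themselves gave no usable level. The gene value of Sufu was between 5.92 and 6.22, that of Gli1 between 5.96 and 6.31, that of Gli2 between 5.78 and 6.01 and that of Gli3 between 5.84 and 6.40 over the mice. The lowest detected signal of an array was between 6.07 and 6.55. Gli1, whose transcript is a common readout of pathway activity, was 0.14 lower in T than in C (SE 0.08, adjusted p = 0.348) and 0.08 higher in G than in T (SE 0.06, adjusted p = 0.701). With the processed signal these were -1.46 (adjusted p = 0.107) and 0.98 (adjusted p = 0.461). The 4 genes together had differences between -0.14 and 0.09 in the 3 comparisons. A change in the GLI readout below the background of the arrays was not detectable.

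The count of 0 called members was set against the other tests and against all 22032 genes. At an unadjusted p of 0.05 limma gave 1 member (Smo) in T against C, 0 in G against T and 1 (Smo) in G against C, beside 20.2%, 10.8% and 13.3% of all genes. A t-test with equal variances gave 0 members after adjustment in each comparison, beside 0%, 0.0227% and 0.0227% of all genes, and 2, 1 and 1 before it, beside 17.4%, 10.4% and 10.2%. Welch's form gave 0 after adjustment, beside 0%, 0.00454% and 0.00455% of all genes, and 1, 0 and 1 before it, beside 13.4%, 9.91% and 9.07%. Groups did not overlap for 1, 0 and 1 members (Smo each time), beside 19.1%, 3.1% and 5.95% of all genes. These shares of members are near the background, and with 10 genes they say nothing particular about the pathway.

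The median difference of the 10 genes was -0.03 in T against C, 0.05 in G against T and 0.00 in G against C, beside 0.01, -0.01 and -0.00 over all genes. The median size of the difference, without its sign, was 0.09, 0.07 and 0.09, against 0.09, 0.06 and 0.07 over all genes. Of the 17 probes, 0 passed in any comparison by limma, beside 1.25%, 0.0413% and 0.122% of all probes. At an unadjusted p of 0.05, limma gave 0, 1 (Gas1 at base 594) and 1 (Smo at base 3835) of the 17, beside 17.7%, 9% and 11.4% of all probes, and both t-tests gave 0 after adjustment, beside 0%, 0% and 0.0018%. The median standard error of a gene difference was 0.09, 0.07 and 0.08 for the 10 genes, which bounds what 3, 4 and 6 mice could show. A p that misses the threshold does not show that the groups were alike.

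**Figure D4:**
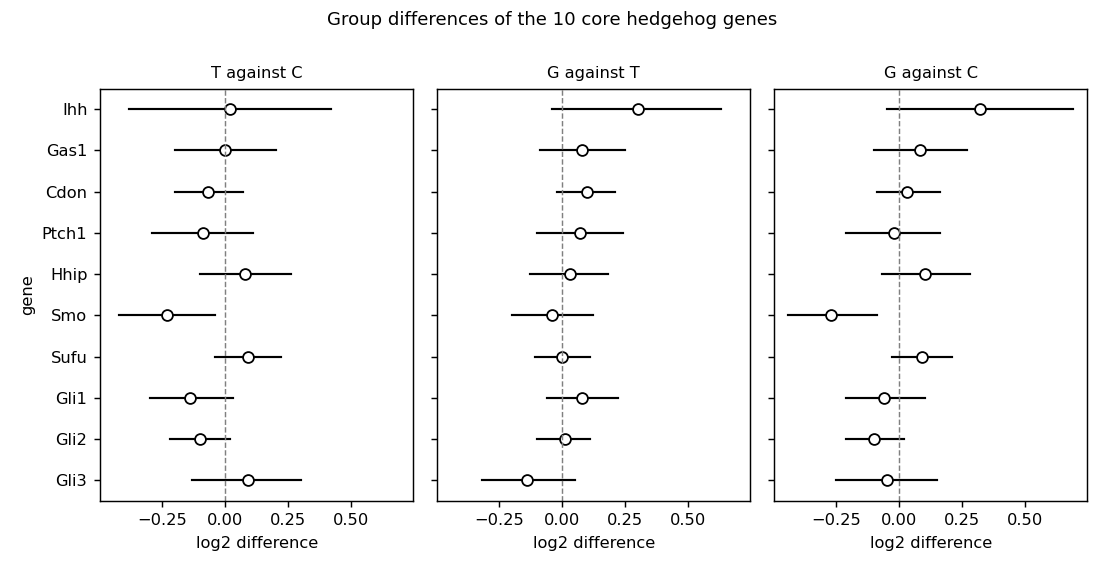
Log2 difference with its 95% confidence interval (horizontal axes) for each of the 10 genes in each of the 3 comparisons. Open points did not pass an adjusted p of 0.05, and all 30 are open. The intervals of Smo lie below 0 in T against C (-0.42 to -0.04) and in G against C (-0.44 to -0.09).

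The wider pathway was read from a list of 59 other genes: ligands and ligand release, receptors and co-receptors, Smo signalling and the ciliary hub, GLI processing, and GLI target genes. Of these, 26 were detected on all arrays and 15 on none. The other ligands Shh and Dhh and the co-receptor Boc were detected on no array. In T against C 2 of the 59 passed the test, both higher in group T, beside 1.18% of all genes called higher. In G against T and in G against C 0 passed by limma, beside 0.132% and 0.427% of all genes. At an unadjusted p of 0.05 there were 12 of 59 in T against C, 12 in G against T and 9 in G against C, beside 20.2%, 10.8% and 13.3% of all genes, and both t-tests called 0 of the 59 in each comparison after adjustment.

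Gpc3, glypican-3, a cell surface proteoglycan that binds hedgehog ligand and is a known marker of liver cancer, was 5.96, 5.94 and 5.93 in group C. It was 6.26, 6.39, 6.25 and 6.85 in group T and ranged from 5.95 over a median of 6.08 to 6.15 in group G. All mice of T lay above all mice of C and of G. Gpc3 was 0.49 higher in T than in C (SE 0.12, adjusted p = 0.0493), with 0.67 on slide 1 and 0.52 on slide 2. As no array of group C detected it, its brighter probe gives a lower limit only, at least 1.47-fold higher in T. G against T was -0.36 (SE 0.10, adjusted p = 0.178). The call in T against C was close to the threshold and was kept under 12 of 29 settings. Without the mouse of arrays 4 and 5 of group T the difference was 0.35 (adjusted p = 0.0375). Without a mouse of group C the Gpc3 call was lost each time (adjusted p 0.0876 to 0.129), and with cyclic loess it was 0.43 (adjusted p = 0.152). With an offset of 16 it was 0.81 (adjusted p = 0.0269), and with the brighter probe alone 0.96 (adjusted p = 0.0431).

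The other genes named by rank did not pass the test. The cyclin gene Ccnd2 was 0.31 higher in G than in C (SE 0.07, adjusted p = 0.0655), and the arrestin gene Arrb1 0.40 higher (SE 0.09, adjusted p = 0.0727). Sox9, a bile duct and progenitor gene, was 0.35 lower in G than in T (SE 0.10, adjusted p = 0.178) and 0.40 lower in G than in C (SE 0.11, adjusted p = 0.133). Sox9 of all mice of group G, at most 6.25, lay below those of T, at least 6.29. These values lie near the background, as Sox9 was detected on 3 of 4 C, 5 of 5 T and 3 of 6 G arrays. Mice of G and T did not overlap for 3.1% of all genes. Of the 6 bile duct cell markers that include Sox9, 5 were above 0 in G against T, with a median of 0.15. Prom1, a progenitor marker, was 0.43 lower in G than in T (SE 0.12, adjusted p = 0.185), and Bcl2, a survival gene, was 0.20 higher in T than in C (SE 0.06, adjusted p = 0.0711). In the order C, T and G, Prom1 was detected on 0, 5 and 4 arrays and Bcl2 on 2, 5 and 4. The median difference over the 59 genes was 0.08 in T against C, with 43 of 59 above 0, and 0.00 in G against T, with 30 of 59 above 0, beside 0.01 and -0.01 over all genes.

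**Figure D5:**
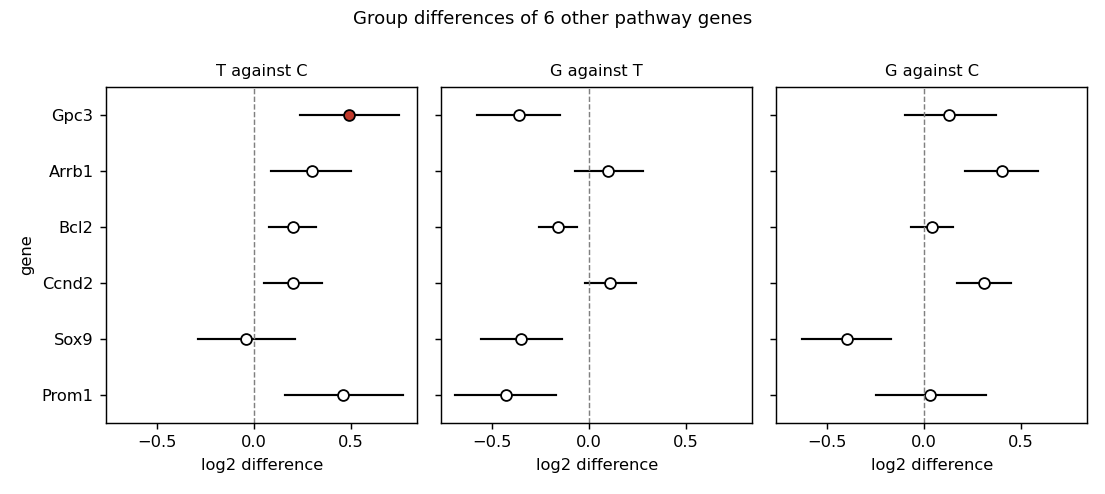
Log2 difference with its 95% confidence interval (horizontal axes) for the 6 pathway genes described outside the 10 members, in each of the 3 comparisons. Filled red points passed an adjusted p of 0.05, which of these 6 holds for Gpc3 (0.49) in T against C only.

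Against the 10 core genes stand 13 genes that the study names as related to hedgehog signalling. They were picked by the study on these samples, so their counts are no independent evidence. Of the 13, 6 passed in T against C, with Cul5, Wif1, Cdkn2c, Bmi1 and Ift122 higher (0.30 to 0.65) and Slit2 lower (-0.92) in T, beside 2.37% of all genes called, 1.18% higher and 1.2% lower. As no T array detected Slit2 and no C array detected Wif1 or Cdkn2c, their ratios have only lower limits, with Slit2 at least 1.73-fold higher in C, and Wif1 at least 1.15-fold and Cdkn2c at least 1.07-fold higher in T. In G against T 1 of the 13 passed, where Wif1, a secreted inhibitor of Wnt signalling, was lower in G (-0.51, SE 0.08, adjusted p = 0.0357), beside 0.0999% of all genes called lower. As no array of group G detected Wif1, it was at least 1.29-fold higher in T. Leaving out 1 mouse moved this Wif1 value to between -0.57 and -0.45, and the call was kept in 2 of 13 such cases. In G against C 0 of the 13 passed by limma, beside 0.427% of all genes, with 2 at an unadjusted p of 0.05, beside 13.3%, and 0 by either t-test after adjustment. None of these 13 is a hedgehog ligand, a hedgehog receptor, Smo, Sufu or a GLI gene.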

How the data were processed

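The 15 arrays measured liver RNA amplified from an oligo-dT primer and labelled with Cy3. The intensity of every spot and its background was deposited by the authors as Feature Extraction 10.7.3.1 wrote it, per the file headers, with gene names and mm9 positions of the array design. A matrix of log2 values, deposited by the authors after background correction and quantile normalization, served as an alternative. Here, mean signals underwent normexp correction (offset 50), log2 transformation and quantile normalization over 59305 spots, without the 3671 control spots. Outlier spots were set to missing, between 218 and 3692 per array, and no spot was marked saturated.

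Spots of a probe were averaged, and probes were centred and averaged per gene symbol (22032 symbols, 29522 probes). Arrays with 1 RNA code in a group were averaged, as the SD of their log2 differences was 0.146 (C) and 0.143 (T), against at least 0.213 for other pairs within a group. Nothing in the labels says that the remaining samples are separate mice other than their own codes, so p-values measure the spread between samples. Array signal over background stands in for depth, and the number of mice limits the precision.

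The 3 groups were fitted in 1 model with limma 3.58.1 in R 4.3.3 (lmFit, eBayes without trend, Benjamini-Hochberg over all genes or all probes, adjusted p 0.05). The packages statmod 1.5.0 and data.table (1.17.8) and, for figures, matplotlib 3.10.9 in Python 3.11.15 were also used. The fit was tested on simulated data for T against C over 20431 genes. It recovered 70.1% of genes changed by 0.5, 86.6% by 1 and 100% by 2 (log2), and called 0.0297% of unchanged genes. All 10 members are named. Of 59 other pathway genes, those that passed and the 3 with the smallest p per comparison are named, except 1 that is not reported here, and the 5 genes with the highest r with Gas1. The cell type markers Ecm1, Ngfr, Emr1 and Ttr are named because they passed, and Acta2 as the highest of the stellate cell markers in T against C, all chosen after their values were seen. The members and lists were chosen with earlier results of these data known. Alternatives covered scaling, background, filters, tests, slide and leaving out each mouse. Age and RNA extraction differ between labels and methods, and the methods' age was used.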

Additional observations from a re-analysis of the deposited data

Results flagged for a closer look

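Among 54 groups of 4 to 6 values of the members, 2 held a mouse far from the rest of its group by Dixon's test, and chance flags about 1 in 20. The 54 are not separate tests. Ihh, Gli1, Gli2 and Gli3 enter with the same values as gene and as probe, and the other gene values are averages of probes also tested. In group G the Sufu gene value of the first mouse was 6.22, above the other mice of the group, which reached 6.07. For Hhip at base 8039 the first mouse of group T had 5.87, below the others of the group, at 5.93 and 5.94. Neither Sufu nor this Hhip probe was detected on any array, so both are values at the background.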

How the results depend on the processing

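Across 29 alternative settings for genes and 26 for probes, the number of features called moved widely, while the members were called in 3 cases. These were Smo in G against C (-0.31, adjusted p = 0.047) and its probe at base 3835 (-0.46, adjusted p = 0.0477), both with the replicate number as a block, and Gas1 at base 1569 in T against C with median scaling (0.64, adjusted p = 0.0356). The sign of a member's gene difference changed in 20 of 285 cases in T against C, 20 in G against T and 11 in G against C, all of them uncalled.

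The gene counts (523, 29 and 94 as reported, in T against C, then G against T, then G against C) and the probe counts (697, 23 and 68 as reported) are given in this order. With 15 arrays as separate samples the genes were 1949, 268 and 338 and the probes 3298, 193 and 352. With the replicate number as a block they were 1606, 162 and 336, and 2740, 129 and 364. Of 13 same-numbered pairs, 4 had a correlation of deviations above 0.1 (range -0.31 to 0.26). Pairs of unlike number were not compared, so these values do not decide whether the numbers pair the samples. With slide as a term and mouse as a random block they were 814, 75 and 176, and 1455, 83 and 207. With median scaling they were 2876 (2861 higher), 8 (2 higher) and 0, and 3071, 6 and 0, against 259, 7 and 36 higher genes with quantile normalization. With cyclic loess, genes were 186 (77 higher) and 1 (1 higher) in T against C and G against C, 30 (12 higher) in G against T, and probes 167, 38 and 1. With the processed signal they were 57, 3 and 1, and 56, 3 and 3. Without dim probes, G against T had 63 genes and the probes numbered 1125 in T against C and 129 in G against C. With trend, genes were 15 in G against T and 59 in G against C, and probes 3 in G against T. With only the 2 groups compared, genes were 11 in G against T and 57 in G against C. With the equal-variance t-test they were 0, 5 and 5, and probes 0, 0 and 1. With Welch's test they were 0, 1 and 1, and 0, 0 and 1. Leaving out each mouse gave 95 to 746, 4 to 117 and 8 to 202 genes, and 70 to 1042, 3 to 117 and 9 to 446 probes. The lowest gene counts came when the third T mouse (95, T against C), the third T mouse or G mouse 3 or 5 (4 each, G against T) or the first C mouse (8, G against C) was left out. Of the 59 other pathway genes, 0 to 9 were called in T against C over these settings. The cause of these movements was not tested.

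Signal over background was the main limit: 6 of the 17 probes were detected on no array, and for these a difference is one between background values.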
